A study of Homo sapiens with 4 samples.

Results

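In cells labelled HepG2, a line established from a human liver tumour, the long noncoding RNA LINC01186 was targeted by siRNA. The 34 genes of fatty acid oxidation and ketone body metabolism were followed in these cells. They were picked by gene symbol from the 44591 genes of the deposited expression tables and all 34 were found there. The choice used gene names only, but it was made with earlier results of these data known. RNA-seq libraries came from cells transfected at about 70% confluency with siNC, a control siRNA, or with siLINC01186, and each group held 2 libraries, numbered replicate 1 and 2. Both groups spent 6 h in medium without serum and then 24 h with 10% serum. The study describes the replicates as biological repeats that received the same siNC but different oligos against LINC01186, and the oligo in each library is not labelled. A difference between the replicate numbers in the siLINC01186 group and a difference between oligos therefore cannot be told apart. All libraries are labelled as 1 cell line. Since the labels do not name separate cultures, p-values speak only for these libraries. The tests also draw on the spread of other genes, so a p-value does not measure a gene's own spread alone.

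Fatty acids are taken up and joined to coenzyme A before they can be burned. Long acyl chains then cross the inner mitochondrial membrane as carnitine esters, and a repeated cycle of dehydrogenation, hydration, dehydrogenation and thiolysis releases acetyl-CoA, with the electrons passed to the respiratory chain through the electron transfer flavoprotein. Very long and branched chains are first shortened in peroxisomes. In fasting liver the acetyl-CoA feeds ketogenesis, and many genes of the pathway are targets of the nuclear receptor PPAR-alpha.

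Before any comparison, the HepG2 label, which comes from the sample titles, was checked against markers of liver cells. The data went against a hepatocyte-like profile, so these markers did not bear the label out. Whether the cells are HepG2 was not tested, and all levels below are those of libraries so labelled. Of 10 markers of hepatocyte-derived cells, 9 had at most 30 reads in every library. Albumin (ALB) had 0 reads in both replicate 1 libraries and 15 and 14 in the replicate 2 libraries of siNC and siLINC01186. APOA1, the main protein of high-density lipoprotein, had 0, 0, 21 and 20 reads in the same order. HNF4A, a liver transcription factor, was the best covered with 79, 83, 161 and 188 reads. The summed level of the 10 markers was 4.96 and 6.23 CPM in replicate 1 and 16.4 and 15.4 CPM in replicate 2, for siNC and siLINC01186 respectively, where CPM is the count per 1000000 reads after TMM scaling of the library sizes. Of the 8 that could be tested, 6 were higher in replicate 2 in edgeR's test (adjusted p under 0.05), against 7.96% of all genes tested. Liver markers thus moved with the replicate number. Of 5 fibroblast markers, 3 were also higher in replicate 2 at an adjusted p under 0.05, against the same 7.96%. The 5 summed to 52.3 and 54.7 CPM in replicate 1 and 88.9 CPM in each replicate 2 library. Endothelial markers summed to between 1.79 and 3.22 CPM and none of the 3 tested differed between the replicate numbers at that threshold. The 4 blood cell markers summed to between 52.8 and 58.8 CPM, nearly all of it from CD68, with CD3E at 0 in every library. In bulk RNA, fewer cells of a type and less RNA per cell cannot be told apart. In addition, the siNC replicate 1 library stood apart in the sum of 12 hypoxia-responsive genes, at 562 CPM against 1115 to 1299 CPM in the other libraries. NDRG1 had the widest gap, at 197 CPM there against 585.5 to 740.5 CPM. VEGFA (83.8 against 79.9 to 96.9 CPM), PDK1 and PFKFB3 did not stand apart in that library. The part of any of these in the results was not tested. LINC01186 itself had 15 and 14 reads in siNC and 12 and 14 reads in siLINC01186 (log2 fold change -0.12), so at this depth the knockdown was not detectable in these libraries. The libraries held between 14968958 and 17297245 counts.

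Of the oxidation genes, HADHA and HADHB are the pair whose DNA is shown, because they encode the alpha and beta subunits of the mitochondrial trifunctional protein and lie head to head on chromosome 2. In the deposited tables (hg19) HADHA runs from chr2:26413504-26467594 on the minus strand and HADHB from chr2:26467616-26513333 on the plus strand, with their ends 22 bases apart. In the RefSeq annotation (GRCh38.p14) the start sites are 307 bases apart. The stretch that lies upstream of the HADHB start is printed on the plus strand, and capitals mark the 194 bases that belong to the promoter windows of both genes.

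HADHB upstream, GRCh38.p14 chr2:26244689-26244938: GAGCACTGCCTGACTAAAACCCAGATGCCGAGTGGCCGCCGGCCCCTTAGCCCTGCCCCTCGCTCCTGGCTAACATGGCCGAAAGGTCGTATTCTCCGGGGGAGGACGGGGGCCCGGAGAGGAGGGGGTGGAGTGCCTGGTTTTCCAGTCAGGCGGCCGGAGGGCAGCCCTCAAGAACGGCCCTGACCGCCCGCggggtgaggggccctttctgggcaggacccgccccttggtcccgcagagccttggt

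The 300-base HADHB window had a GC content of 68%, against a median of 58.7% over all promoter windows. RefSeq promoter windows span 250 bases before to 50 bases after a start site. They were matched for 28 of the 34 genes, with 40 windows in all. The motif TCAAGGTCA, an estrogen-related receptor element, was searched on both strands and was in 0 of the 40 windows, against 0.353% of 35116 windows. The DR1 element bound by PPAR-alpha, in its strict form, was in 0 of 40 windows against 0.0228% of all windows. For the NRF1 element the values were 0 of 40 and 1.24%. At such low shares, 0 of 40 windows carries little information. TATAAA was in 4 of the 40 windows (of ACADVL, ACSL1, FABP1 and PLIN2), against 11.5% of all windows. These counts describe the letters in the windows only.

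In the control cells most genes of the mitochondrial pathway were read at a high level, while ACADL and FABP1 were nearly or fully without reads. Levels are given as TPM, the deposited count scaled by gene length and library, so that genes can be compared. In siNC the mean level was above 100 TPM for 7 of the 34 genes, between 10 and 100 TPM for 17, between 1 and 10 TPM for 7, and under 1 TPM for 3. The top of the order was ACADVL, the very long-chain acyl-CoA dehydrogenase that opens the cycle in mitochondria, at 252 and 224 TPM in siNC replicates 1 and 2 (mean 238 ± 19.5, SD, n = 2). ECI1, which moves double bonds of unsaturated chains, followed at 203 and 189.9 TPM. HADHA stood at 166 and 216 TPM, ECHS1, the short-chain enoyl-CoA hydratase, at 181 and 176 TPM, and ETFA, a subunit of the electron transfer flavoprotein, at 170.3 TPM in both libraries. ECI1 and HADHA overlapped each other, and HADHA overlapped ECHS1, so these neighbours did not differ beyond their spread. Over the whole order, 17 of the 33 pairs of neighbours overlapped and 16 did not.

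At the bottom, ACADL, the long-chain acyl-CoA dehydrogenase, had 0 reads in all 4 libraries, which allows a level of up to between 0.169 and 0.210 CPM if 3 reads are taken as the floor. This limit covers counting error only. FABP1, the liver fatty acid binding protein, had 1 read in each replicate 1 library and 0 reads in each replicate 2 library. ACOX2, the peroxisomal oxidase for branched chains and bile acid precursors, was at 0.954 and 0.943 TPM in siNC, ACADSB, which works on short branched chains, at 1.24 and 1.35 TPM, and ACSL1, an acyl-CoA synthetase, at 1.09 and 1.84 TPM.

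Within gene families the levels were uneven. Among the ACSL acyl-CoA synthetases of the 34, ACSL4, which prefers arachidonic acid, was at 35.9 and 34.9 TPM in siNC. ACSL5 was at 6.54 and 4.43 TPM, and ACSL1 was near 1 TPM. ACSL3 is outside the 34 and was chosen after its values were seen. It was higher than ACSL4, at 58.5 and 66.7 TPM in siNC. The ACSL4 level was 32.8 and 19.0 times that of ACSL1 in siNC replicates 1 and 2, and 34.8 and 16.6 times in siLINC01186. Of the transporters, SLC27A4 was at 127 and 87.5 TPM and SLC27A2 at 36.7 and 30.2 TPM in siNC. CPT1A, which makes the acylcarnitines and is the regulated step of mitochondrial entry, was at 119 and 104 TPM, while its partners SLC25A20 (carnitine-acylcarnitine translocase) and CPT2 were at 17.6 and 18.0 TPM and at 15.9 and 17.1 TPM. The ketogenic arm held ACAT1, the mitochondrial acetoacetyl-CoA thiolase, at 66.5 and 92.6 TPM and BDH1, which interconverts acetoacetate and beta-hydroxybutyrate, at 6.00 and 6.79 TPM. OXCT1, which uses ketone bodies for fuel, is outside the 34 and was chosen after its values were seen. It was at 82.1 and 73.1 TPM in siNC replicates 1 and 2. On the TMM scale it was at 134.6 and 118.4 CPM in siNC and 131.4 and 113.8 CPM in siLINC01186, and the groups overlapped (log2 fold change -0.05).

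**Figure D1:**
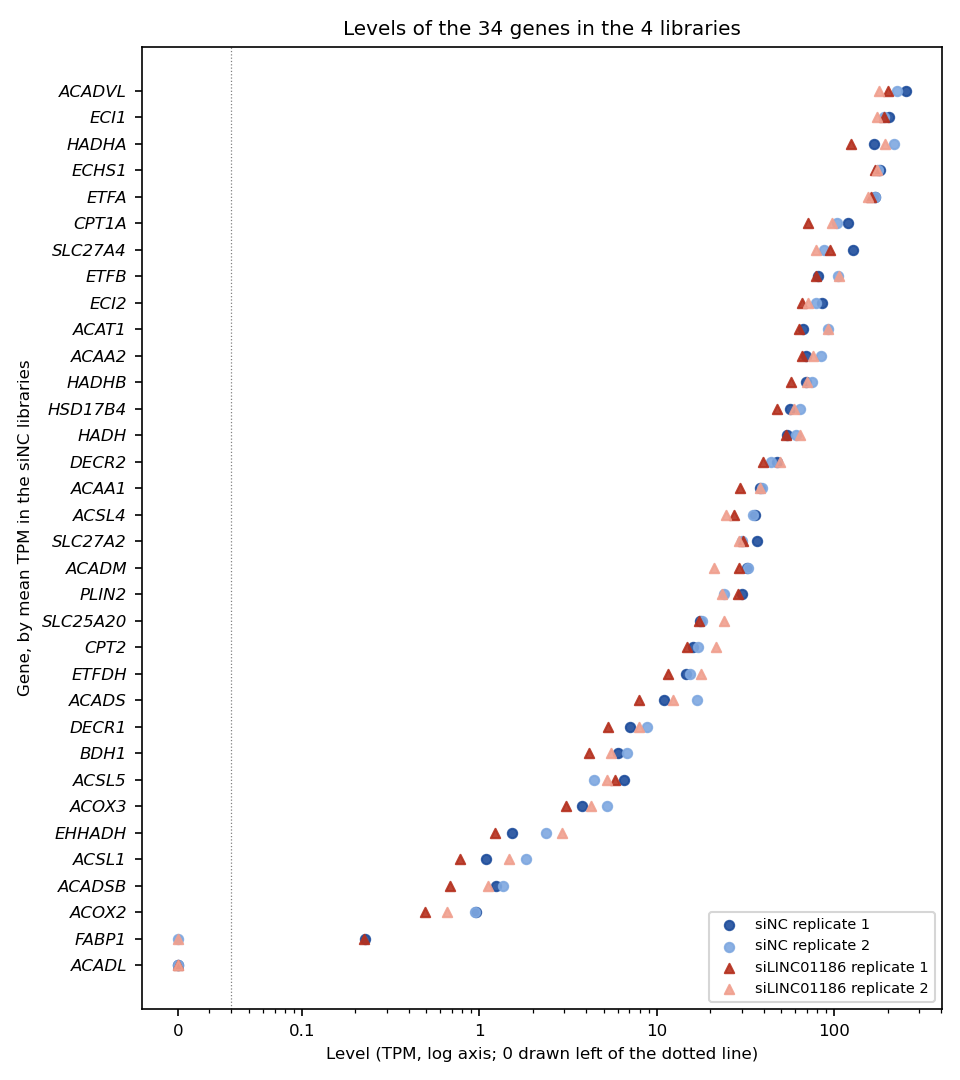
Deposited TPM (log axis) of each of the 34 genes, ordered by the mean of the siNC libraries, with 1 point per library (circles siNC, triangles siLINC01186). The order runs from ACADVL at 252 and 224 TPM in siNC down to FABP1 and ACADL, whose values of 0 are drawn left of the dotted line.

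The next question was whether siLINC01186 changed the pathway. At the study's limits (absolute log2 fold change over 1 together with an unadjusted p under 0.05), 0 of the 32 genes that could be tested passed, against 0.756% of the 23942 genes tested (181 genes). ACADL and FABP1 fell under the minimum of 5 reads summed over the libraries and were not tested. At an adjusted p under 0.05 by edgeR's quasi-likelihood test without a block no gene of the whole table passed, and at an unadjusted p under 0.05 the count was 0 of 32 against 1.21% of all genes. DESeq2's Wald test also gave 0 of the 32 genes at either p. The median log2 fold change of the 32 genes was -0.01 and that of all genes tested 0.00, with 15 genes higher and 17 lower. Single values ran from -0.55 (ACOX2) to 0.37 (SLC25A20), with a median standard error of 0.22. The summed level of the 34 genes was 2156 and 2134 CPM in siNC and 2071 and 2063 CPM in siLINC01186.

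The carnitine shuttle held 3 of the 4 smallest p-values of the pathway, and its members lay on different sides of siNC. CPT1A was at 300.1 and 259.4 CPM in siNC replicates 1 and 2 and at 214 and 257 CPM in siLINC01186. The siLINC01186 libraries were below both controls, but replicate 2 only narrowly, and within replicate numbers the difference was -0.49 in replicate 1 and -0.01 in replicate 2 on the log2 scale. Over both, the fitted log2 fold change was -0.25 (standard error 0.19, adjusted p = 1.00, edgeR's quasi-likelihood test). It lay between -0.39 and -0.12 when each library was left out, and was weakest without a replicate 1 library, at -0.12 without that of siLINC01186 and -0.14 without that of siNC.

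SLC25A20 was at 15.3 and 15.5 CPM in siNC and at 18.1 and 21.7 CPM in siLINC01186. Both treated libraries exceeded both controls, and the differences within replicates were 0.23 and 0.48 (log2 fold change 0.37, standard error 0.22, adjusted p = 1.00, edgeR). When each library was left out the value was between 0.22 and 0.50, the lowest without siLINC01186 replicate 2. CPT2, the inner membrane transferase, was at 22.6 and 24.1 CPM in siNC and 25.0 and 32.3 CPM in siLINC01186, again without overlap. It had a log2 fold change of 0.30 (standard error 0.21, adjusted p = 1.00, edgeR), and it was between 0.09 and 0.47 when each library was left out, the lowest without siLINC01186 replicate 2. None of the 3 genes of the shuttle passed the test.

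In uptake, activation and storage, ACSL4 had the smallest p. It was at 88.5 and 84.9 CPM in siNC and at 79.6 and 63.2 CPM in siLINC01186, with both treated libraries below both controls. The fitted log2 fold change was -0.28 (standard error 0.19, adjusted p = 1.00, edgeR), and it was between -0.46 and -0.13 when each library was left out, the weakest without siLINC01186 replicate 2. PLIN2, which coats lipid droplets, was at 29.1 and 22.7 CPM in siNC and 33.2 and 23.7 CPM in siLINC01186. The groups overlapped (log2 fold change 0.13, standard error 0.24, adjusted p = 1.00, edgeR). The transporters SLC27A2 and SLC27A4 and the synthetases ACSL1 and ACSL5 had log2 fold changes between -0.22 and 0.18.

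The acyl-CoA dehydrogenases were the role in which every tested gene had a negative log2 fold change, from -0.37 (ACADSB) to -0.15 (ACADVL), and 0 of 4 passed the test. ACADVL was at 293 and 257 CPM in siNC and 278 and 217 CPM in siLINC01186. ACADM, the medium-chain enzyme, was at 40.7 and 40.8 CPM in siNC and at 43.5 and 27.9 CPM in siLINC01186. It was the gene with the widest gap between replicates, 0.10 in replicate 1 and -0.55 in replicate 2 on the log2 scale. ACADS, the short-chain enzyme, was at 10.6 and 16.0 CPM in siNC and 9.10 and 12.4 CPM in siLINC01186, and its groups overlapped. ACADSB was at 3.40 and 3.65 CPM in siNC and at 2.24 and 3.21 CPM in siLINC01186, counts of 57, 59, 32 and 57 reads.

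Neither gene of the trifunctional protein passed the test for the treatment. HADHA was at 233 and 298 CPM in siNC and 206 and 281 CPM in siLINC01186 (log2 fold change -0.12, standard error 0.22, adjusted p = 1.00, edgeR). HADHB was at 72.3 and 77.8 CPM in siNC and 71.4 and 76.8 CPM in siLINC01186 (log2 fold change -0.02, standard error 0.18, adjusted p = 1.00, edgeR). The remaining enzymes of the cycle, HADH (the short-chain hydroxyacyl-CoA dehydrogenase), ECHS1 and ACAA2 (a thiolase), had log2 fold changes from 0.05 to 0.20. ECHS1 was at 111 and 106 CPM in siNC and 123 and 111 CPM in siLINC01186.

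The auxiliary enzymes ECI1, ECI2, DECR1 and DECR2, which handle double bonds, lay between -0.10 and 0.13. ECI1 was at 98.1 and 90.9 CPM in siNC and 109 and 88.7 CPM in siLINC01186. In electron transfer, ETFA, ETFB and their oxidoreductase ETFDH lay between 0.07 and 0.16. ETFA was at 106 and 105 CPM in siNC and 120.0 and 102 CPM in siLINC01186. The 5 peroxisomal genes ran from -0.55 (ACOX2) to 0.23 (EHHADH). ACOX2 had only 17, 16, 9 and 13 reads in siNC replicates 1 and 2 and siLINC01186 replicates 1 and 2, and its standard error was 0.53. Of the ketone body genes, ACAT1 had a log2 fold change of 0.12 and BDH1 of -0.25, and none of these passed the test.

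Both siLINC01186 libraries lay above both siNC libraries in 4 of the 32 genes (CPT2, SLC25A20, HADH and ECHS1), while 13.6% of all genes tested had this order. Both lay below in 5 genes (CPT1A, ACADSB, ACOX2, ACSL4 and BDH1), while 12.4% of all genes did. The treated library was the higher in both replicate numbers for 8 of the 32 genes, against 27.2% of all genes tested, and the lower in both for 14, against 26.2%. The replicates went opposite ways for 10. The hypoxia-responsive list was higher in siLINC01186 replicate 1 than in siNC replicate 1 for 12 of 12 genes and in replicate 2 for 5 of 12.

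**Figure D2:**
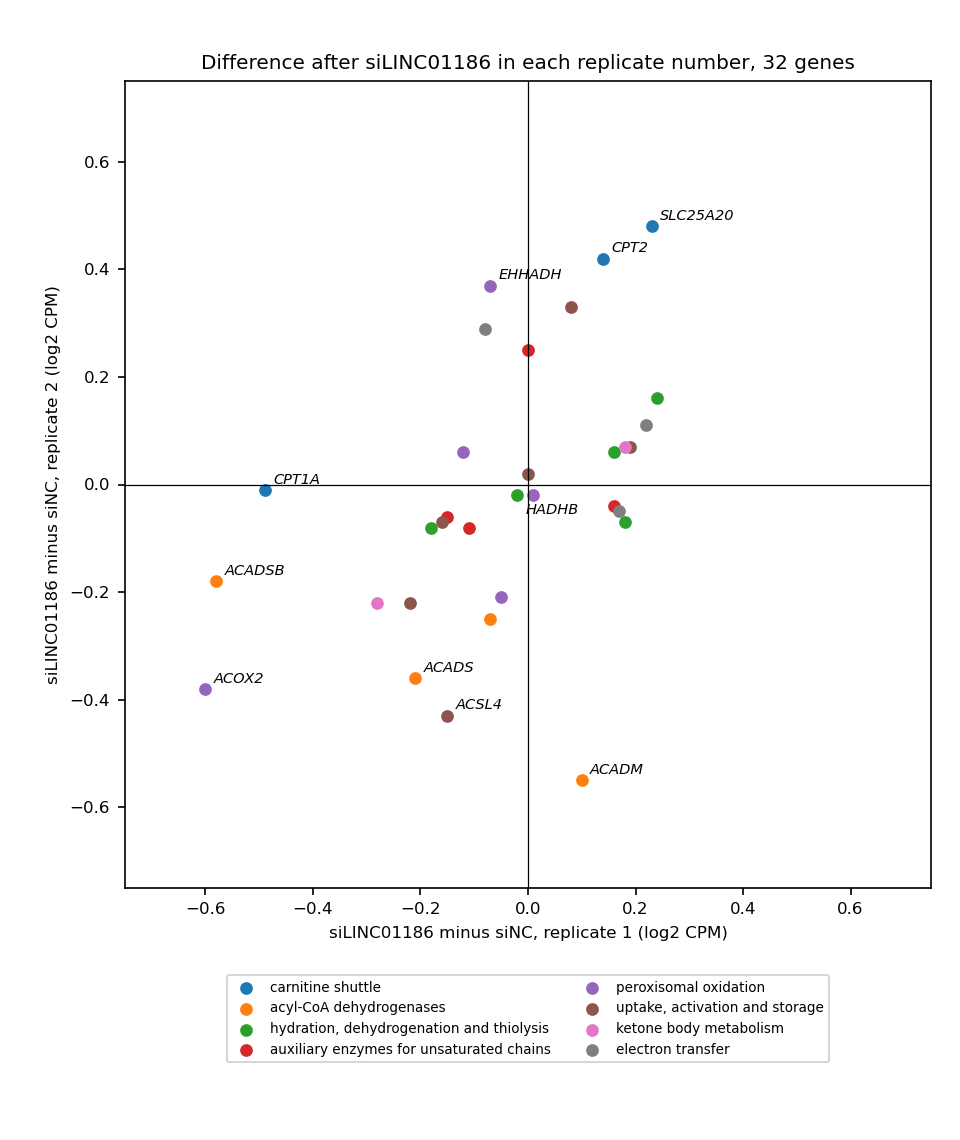
Difference in log2 CPM (siLINC01186 minus siNC) within replicate 1 (x axis) and within replicate 2 (y axis), with 1 point for each of the 32 genes tested, coloured by role. SLC25A20 and CPT2 lie at the upper right, ACOX2 and ACADSB at the lower left, and ACADM (0.10 and -0.55) and CPT1A (-0.49 and -0.01) lie far from the diagonal.

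The oligos against LINC01186 were compared with the 3′UTRs of these genes, because an siRNA can also act through its seed, bases 2 to 8. Both strands of the oligos in the study's oligo table are shown with the seed in capitals.

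siSALIS_01 as printed: aGGGCTCTattgggcaaaaa
siSALIS_01 reverse complement: tTTTTGCCcaatagagccct
siSALIS_02 as printed: cTAAGTGActcactgcatc
siSALIS_02 reverse complement: gATGCAGTgagtcacttag

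siSALIS_02 as printed lies in the GENCODE 29 transcript of LINC01186, so its reverse complement is the strand that pairs with the target. Neither strand of siSALIS_01 was found in that transcript. The transcript has 626 bases, while the deposited length of LINC01186 is 655, and a form of that length was not searched. The study reports lower LINC01186 by qPCR in HepG2 after its siRNAs. A site that pairs with the seed of the reverse complement of siSALIS_02 was in the 3′UTR of 0 of the 32 genes with an annotated 3′UTR, against 13.5% of 14803 genes. A site for the seed of siSALIS_02 as printed was in ACADM, SLC27A4 and ACAT1 (3 genes), against 12.1% of all. For siSALIS_01 as printed it was in HADHA, BDH1 and both thiolase genes ACAA1 and ACAA2 (4 genes), against 13.1%, and for its reverse complement in 2 genes, the dehydrogenase ACADSB and the thiolase ACAT1, against 14%. The sites for siSALIS_02 as printed are shown, in capitals with their flanks, because ACADM had the widest gap between the replicate numbers after siLINC01186.

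ACADM, GRCh38 chr1:75763329-75763355: agcccatattTCACTTAccttatttaa
SLC27A4, GRCh38 chr9:128361328-128361354: atctgttcatTCACTTAtctaagctga
ACAT1, GRCh38 chr11:108136716-108136742: ttattttctgTCACTTAttattgccat

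On the log2 scale, ACADM differed by 0.10 and -0.55 in replicates 1 and 2. SLC27A4 differed by -0.16 and -0.07 and ACAT1 by 0.18 and 0.07. For siSALIS_01 as printed, the median difference of the 4 genes with a site was -0.15 in replicate 1 and -0.08 in replicate 2, against -0.01 and -0.02 for the genes of the pathway without one. For its reverse complement the medians were -0.20 and -0.05 over 2 genes, against -0.04 and -0.03. None of these differences or medians was tested. The oligo in each siLINC01186 library is not labelled, so none of them can be assigned to an oligo. A seed match is a description and shows no binding.

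The replicate numbers were compared next, with the treatment as a term in the fit. Here 7 of the 32 genes passed an adjusted p of 0.05 by edgeR's quasi-likelihood test, against 17.5% of all 23942 genes tested. Of these, 4 were higher in replicate 2 (HADHA, ACAT1, ACADS and EHHADH), against 7.96% of all genes, and 3 were lower (SLC27A4, PLIN2 and ACADVL), against 9.55%. No gene of the pathway passed the study's fold and p limits, which 4.81% of all genes did. The median log2 fold change was 0.11 for the 32 genes and 0.02 for all genes, and 21 genes were higher in replicate 2 and 11 lower. Both replicate 2 libraries lay above both replicate 1 libraries in 13 genes, against 27.0% of all genes, and below in 8, against 25.6%. In this fit a standard error need not follow a gene's own spread between libraries. CA9, a hypoxia-responsive gene, differed between the replicate numbers by 2.33 in siNC and -0.10 in siLINC01186 on the log2 scale. Its standard error was nevertheless 0.13. The count of 7 depended on the fit. It was 1 (SLC27A4) with DESeq2's Wald test, and without the treatment term it was 2 with all libraries, 0 without siNC replicate 1, 1 without siLINC01186 replicate 1, 3 without siLINC01186 replicate 2 and 8 without siNC replicate 2. Hepatocyte and fibroblast markers were also higher in replicate 2, as given above, and their part in these differences was not tested.

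Of the 6 tested genes of uptake, activation and storage, 2 were lower in replicate 2 and none was higher at the threshold. SLC27A4, a fatty acid transport protein with acyl-CoA synthetase activity, was at 187 and 167 CPM in replicate 1 (siNC and siLINC01186) and at 127 and 121 CPM in replicate 2. All replicate 2 values were below all replicate 1 values, and the fitted log2 fold change was -0.51 (standard error 0.11, adjusted p = 9.77e-05, edgeR), a level 1.42 times as high in replicate 1. PLIN2 was at 29.1 and 33.2 CPM in replicate 1 and 22.7 and 23.7 CPM in replicate 2 (log2 fold change -0.42, standard error 0.14, adjusted p = 0.0236, edgeR). SLC27A2, at 40.4 and 40.3 CPM in replicate 1 and 32.9 and 33.3 CPM in replicate 2, did not pass (adjusted p = 0.147, edgeR). Nor did ACSL5 (log2 fold change -0.45, adjusted p = 0.0709) or ACSL1, which lay on the other side (log2 fold change 0.73, adjusted p = 0.0633). ACSL1 had only 40, 29, 64 and 60 reads in siNC and siLINC01186 of replicate 1 and then of replicate 2.

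In the mitochondrial cycle the changes went in both directions. HADHA rose from 233 and 206 CPM in replicate 1 to 298 and 281 CPM in replicate 2 (log2 fold change 0.40, standard error 0.10, adjusted p = 0.0013, edgeR). Its head-to-head neighbour HADHB had 72.3 and 71.4 CPM in replicate 1 and 77.8 and 76.8 CPM in replicate 2 (log2 fold change 0.11, standard error 0.12, adjusted p = 0.67, edgeR). The ratio of HADHA to HADHB in TPM was 2.41 and 2.16 in replicate 1 and 2.86 and 2.74 in replicate 2. A difference between the responses of both genes was not tested. ACADS was higher in replicate 2, at 16.0 and 12.4 CPM against 10.6 and 9.10 CPM (log2 fold change 0.53, standard error 0.17, adjusted p = 0.0173, edgeR). ACADVL was lower, at 257 and 217 CPM against 293 and 278 CPM (log2 fold change -0.27, standard error 0.10, adjusted p = 0.0465, edgeR). ACADM was at 40.7 and 43.5 CPM in replicate 1 and 40.8 and 27.9 CPM in replicate 2 and did not pass (adjusted p = 0.0982, edgeR). CPT1A had a log2 fold change of 0.02 between the replicate numbers, since it was lower in replicate 2 of siNC and higher in replicate 2 of siLINC01186. The shuttle, the auxiliary enzymes and electron transfer had 0 of 10 genes past the threshold.

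In peroxisomal oxidation and ketone body metabolism the log2 fold changes were above 0 in all 7 genes, and 2 passed the test. EHHADH, the bifunctional enzyme of the peroxisomal cycle, was at 2.81 and 2.66 CPM in replicate 1 and 4.27 and 5.57 CPM in replicate 2, with 47, 38, 69 and 99 reads. It had a log2 fold change of 0.84 (standard error 0.26, adjusted p = 0.011, edgeR), or 1.78 times. ACAT1 was at 65.5 and 74.4 CPM in replicate 1 and 90.1 and 94.9 CPM in replicate 2 (log2 fold change 0.40, standard error 0.12, adjusted p = 0.00749, edgeR). The other peroxisomal genes, ACOX3, HSD17B4, ACAA1 and ACOX2, had log2 fold changes of 0.38, 0.15, 0.10 and 0.07 and did not pass.

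**Figure D3:**
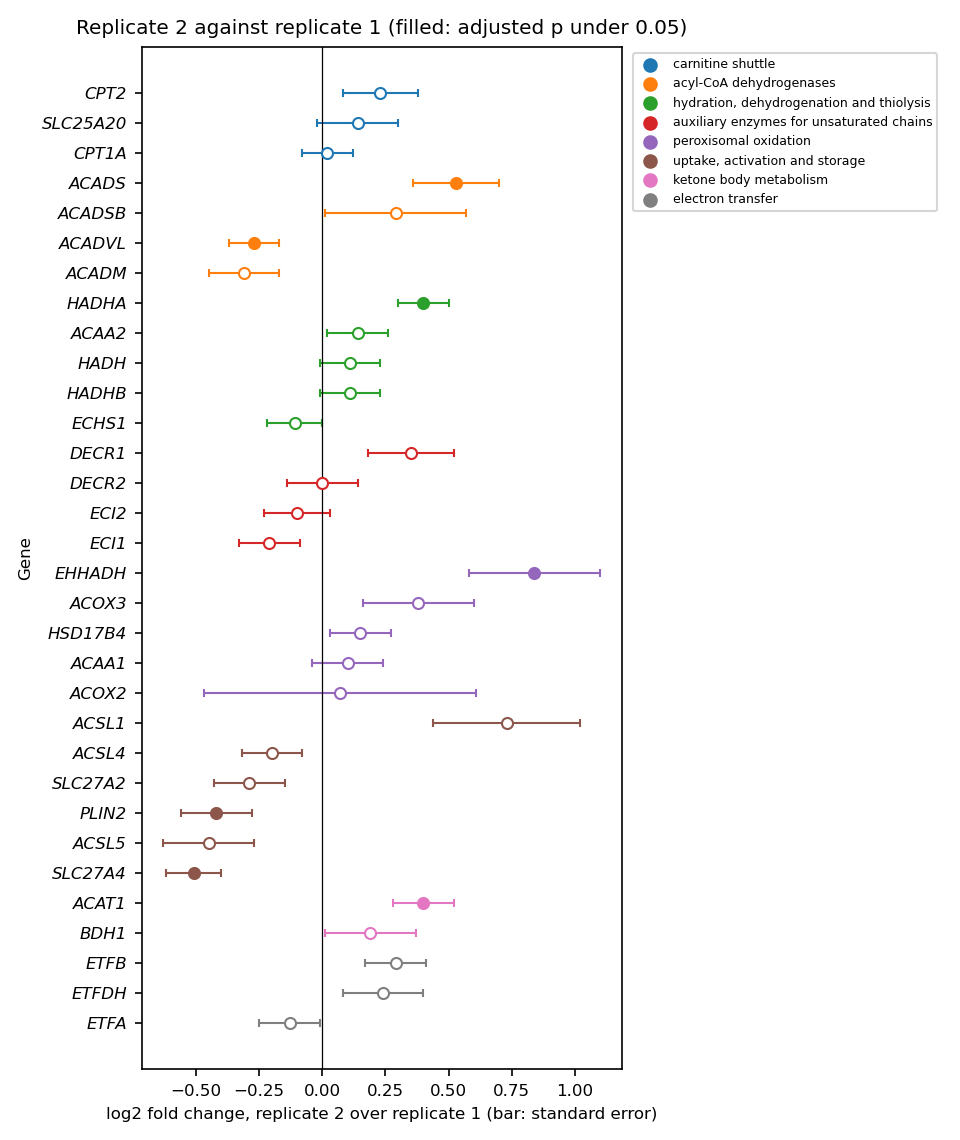
log2 fold change of replicate 2 over replicate 1 from the fit with treatment as a term, for the 32 genes tested, grouped and coloured by role, with bars for the standard error and filled points for an adjusted p under 0.05. The 7 filled points are ACADS, HADHA, EHHADH and ACAT1 on the right and ACADVL, PLIN2 and SLC27A4 on the left.

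**Figure D4:**
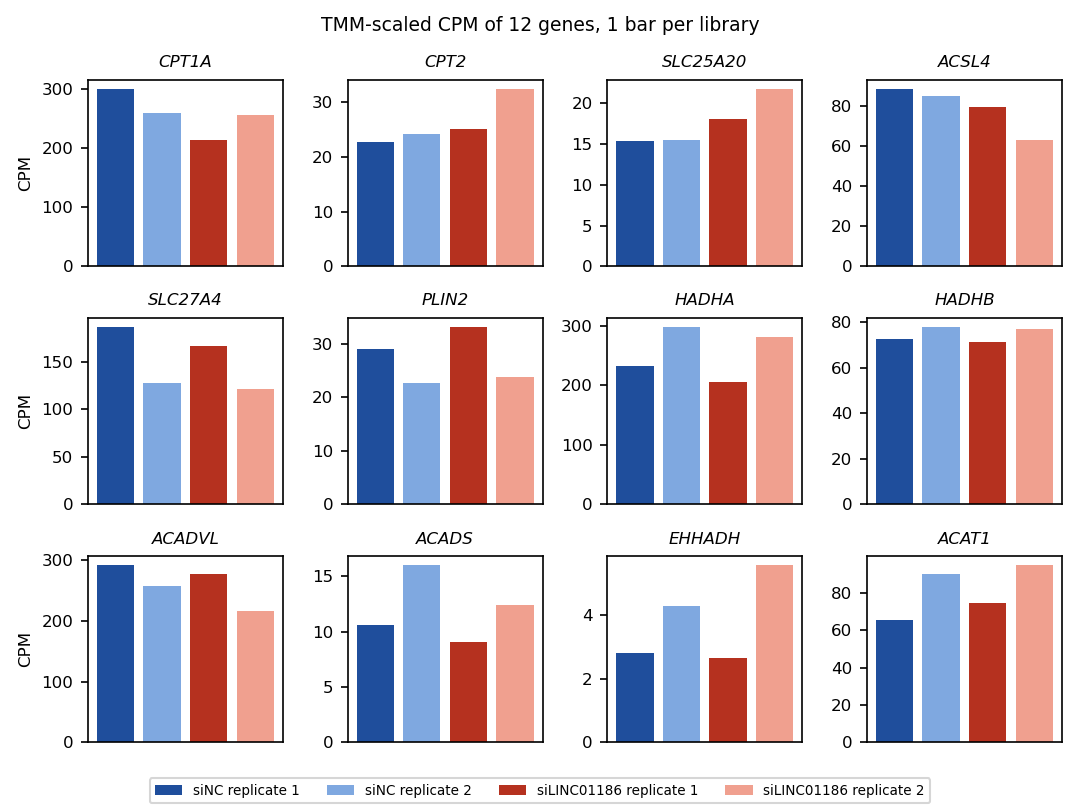
TMM-scaled CPM (y axis from 0) of 12 genes, with 1 bar per library, siNC in blue and siLINC01186 in red, dark for replicate 1 and light for replicate 2. Dark bars exceed light bars for SLC27A4, PLIN2 and ACADVL and light bars exceed dark bars for HADHA, ACADS, EHHADH and ACAT1 in both groups, while HADHB stays between 71.4 and 77.8 CPM.

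Genes of the same pathway outside the 34 were read from a list of 34 further oxidation and ketone genes. After siLINC01186, in the fit without a block, 0 of the 32 tested passed an adjusted p of 0.05 or the fold limits. Their median log2 fold change was -0.02. In that fit no gene of the whole table passed the adjusted p, and 0.756% passed the fold limits, so a count of 0 in a short list carries little information. Between the replicate numbers 13 passed, against the same 17.5% of all genes. Of these, 12 were higher in replicate 2, against 7.96% of all genes. Among those that passed were ACACB, the acetyl-CoA carboxylase whose malonyl-CoA restrains CPT1 (log2 fold change 0.89, adjusted p = 2.82e-09, edgeR), SLC27A1, a transport protein of the SLC27A4 family (0.96, adjusted p = 1.32e-08, edgeR), and CRAT, carnitine acetyltransferase (0.80, adjusted p = 8.75e-08, edgeR). SLC27A1 was at 15.7 and 16.5 CPM in replicate 1 and 32.3 and 30.2 CPM in replicate 2, opposite to SLC27A4 in direction. Of 12 tested genes in a list of PPAR regulators and other PPAR-alpha targets, 0 passed after siLINC01186 in the fit without a block. With the replicate number as a block, 1 (TXNIP) passed an adjusted p of 0.05. Between the replicate numbers 4 passed, all higher in replicate 2, against 7.96% of all genes in that direction. These were TXNIP, a thioredoxin-binding protein (log2 fold change 1.40), CREB3L3, a liver transcription factor (2.33), PPARA itself (0.63) and its coactivator PPARGC1A (0.55). PPARA was at 24.3 and 27.4 CPM in replicate 1 and 40.5 and 39.5 CPM in replicate 2. Of the 12 hypoxia-responsive genes, 0 passed after siLINC01186 in the fit without a block, while 4 passed an adjusted p of 0.05 with the block. Between the replicate numbers 5 passed, all higher in replicate 2, against 7.96% of all genes. They were CA9, NDRG1, EGLN3, BNIP3 and KDM3A, the last named after its values were seen. These calls went with the siNC replicate 1 library. Replicate 2 minus replicate 1 ran from 0.82 (KDM3A) to 2.33 (CA9) on the log2 scale in siNC, but from -0.12 (BNIP3) to 0.31 (EGLN3) in siLINC01186, with NDRG1 at 197 and 587.5 CPM in siNC and siLINC01186 of replicate 1 and at 740.5 and 585.5 CPM in replicate 2.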

How the data were processed

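The 34 genes and all gene lists were chosen with earlier results of these data known. Raw counts of reads for each gene were deposited by the authors, together with deposited TPM values that match those counts, divided by gene length and scaled to 1000000, within 2.91e-05 TPM. The submitters' processing notes list hg19, HISAT2, TopHat2, Bowtie2 and HISAT without roles, and the counting program and its strand setting are not given in the sources used here. Without strand, reads of overlapping genes cannot be told apart. No reads were aligned again.

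Tests were run in edgeR 4.0.16 and DESeq2 1.42.0 (R 4.3.3). The 23942 genes whose counts over the 4 libraries summed to 5 or more were scaled by TMM and tested by edgeR's quasi-likelihood test without a block for siLINC01186 against siNC, and with treatment as a term for replicate 2 against replicate 1. Benjamini-Hochberg adjustment covered every gene tested. A standard error is the size of the log2 fold change divided by the root of its F statistic. CPM uses TMM-scaled library sizes, and log2 CPM a prior count of 2. A fold against a group at 0 is not given. The procedure was tested on simulated data. Values in every library are given for genes past a limit in either comparison, the 4 of smallest p in each, the 5 highest and 5 lowest by TPM in siNC, and CPT1A, HADHA, HADHB and PLIN2. Genes of other lists are named, at most 4 per list, where they passed an adjusted p of 0.05. Results for some genes that this rule covers are not reported here.

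Alternatives were DESeq2's size factors and Wald test, edgeR's expression filter with a minimum count of 10, at least 1 count, robust estimation, the replicate block, no treatment term, TPM, and leaving out each library. Promoter windows came from RefSeq (GRCh38.p14) and 3′UTRs from GENCODE 29. Sequences were read with Python 3.11.15.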

Additional observations from a re-analysis of the deposited data

Results flagged for a closer look

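In a pair of genes the replicate numbers differed in opposite directions in the groups, by more than 0.1 on the log2 scale. CPT1A differed between replicates 1 and 2 by -0.21 in siNC (300.1 and 259.4 CPM) and by 0.26 in siLINC01186 (214 and 257 CPM). DECR2, a peroxisomal reductase for double bonds, differed by -0.13 in siNC (34.6 and 31.7 CPM) and by 0.13 in siLINC01186 (34.5 and 37.8 CPM). Each group has 1 library per replicate number, so the difference between the groups was not tested.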

How the results depend on the processing

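After siLINC01186 the counts of 0 genes past the fold limits and 0 at an adjusted p under 0.05 held in every alternative run. With the replicate block, 4 genes had an unadjusted p under 0.05 (CPT1A, SLC25A20, ACSL4 and CPT2, adjusted p from 0.36 to 0.593, edgeR). The labels do not tie same-numbered libraries to a shared culture or day, and there are 2 pairs. Deviations of same-numbered libraries from the group means correlated at 0.563 over 16848 genes passing the expression filter and at 0.763 over the 32 tested genes of the pathway. At an adjusted p under 0.05 the block gave 278 genes of the whole table in place of 0, with 0 of the 32 genes of the pathway, 0 of the 32 further oxidation and ketone genes, 1 of 12 PPAR genes (TXNIP) and 4 of 12 hypoxia-responsive genes (CA9, NDRG1, EGLN3 and P4HA1, the last named after its values were seen). With the TPM ratio the median of all genes tested shifted by -0.16, and MIR6087 took 13.8% and 8.69% of TPM in siLINC01186 replicates 1 and 2 against 1.16% and 1.91% in siNC.

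Leaving out each library, the log2 fold change after siLINC01186 ranged from -0.37 to 0.08 for HADHA, from -0.08 to 0.04 for HADHB and from -0.12 to 0.35 for PLIN2, and CPT1A between the replicate numbers from -0.22 to 0.27. Between the replicate numbers, the 7 genes at an adjusted p under 0.05 became 1 with DESeq2's Wald test, 4 with edgeR's expression filter (SLC27A4, HADHA, ACAT1 and ACADS), 2 without the treatment term (SLC27A4 and HADHA) and 0 to 8 when a library was also left out. The count past the fold limits was 0 to 1 when a library was left out, with EHHADH at 1.05 without siNC replicate 2. Direction was kept for all 7 genes in every alternative, but 34 of the single values were no longer past the threshold. The cause was not tested. By CPM, not per length, 3 of the 5 genes with the highest TPM in siNC were among the 5 highest.

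With 2 libraries per group, the median standard error of 0.22 in the fit without a block limits what could be seen after siLINC01186. With the replicate block the standard error was 0.10 for CPT1A, HADHA and ACADVL, against 0.19, 0.22 and 0.20 without it. For ACOX2 it was 0.54 with the block and 0.53 without. Genes such as ACOX2, ACADSB, ACSL1 and EHHADH had few reads.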
